A study of Oryza sativa with 8 samples.

Results

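The rows described here are the plastid-encoded transcripts of rice leaf, taken as the rows whose identifier begins with CAA, a series of protein identifiers of the rice plastid genome. Of 107 such rows among 36850 in the count table, 38 had at least 15 counts summed over all 8 libraries and form the set. Leaf RNA was sequenced from field-grown rice (Oryza sativa) at the heading stage, from the second leaf from the top, taken at 10 in the morning. The plants compared were mEmBP-OE-4, 1 rice line overexpressing the maize bZIP factor mEmBP-1a (4 libraries), and WT, labelled wild type (4 libraries). The promoter that drives the transgene is not given in the sources used here. The labels do not tie the replicates to separate plants, so the p-values measure only the spread between libraries, which can be technical.

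The plastid genome carries genes for core subunits of both photosystems, the cytochrome b6f complex, the plastid ATP synthase and the NADH dehydrogenase-like complex, for the large subunit of Rubisco, and for part of the machinery that transcribes and translates them. The partner subunits, among them the antenna proteins and the small subunit of Rubisco, are encoded in the nucleus and imported. Plastid genes are transcribed by a bacterial-type polymerase, whose core is plastid-encoded and whose sigma factors are nuclear, and by a nuclear-encoded phage-type polymerase. Their messages are cut from long precursors and mostly carry no stable poly(A) tail, unlike nuclear messages. The comparison asks whether the plastid-encoded transcripts differ between the line and WT as the nuclear photosynthesis genes do.

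The files do not pair the CAA identifiers with gene names, and 0 of the 107 were found in the reference gene table, which lists 108 protein-coding genes of the plastid. The rows are therefore given by their rank in total counts, and 4 of them also by identifier. No role could be assigned to any row, and the label of the set rests on the identifiers. Levels are given as CPM, the count of a row divided by the total of all rows in its library and scaled to 1000000, and are not per length, so a higher CPM in 1 row than in another is not a higher level of its transcript.

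Plastid-encoded rows held a very small share of the counts, and it overlapped between the line and WT. The mEmBP-OE-4 libraries held 38308580 to 50800180 counts and the WT libraries 35627524 to 47643781. All CAA rows together took 0.0278%, 0.0270%, 0.0157% and 0.0302% of the counts in mEmBP-OE-4 replicates 1 to 4, against 0.0183%, 0.0304%, 0.0207% and 0.0257% in WT replicates 1 to 4. The lowest and highest libraries of both groups lay close together, with mEmBP-OE-4 replicate 3 the lowest of all 8. The means were 0.0252% ± 0.00646 in mEmBP-OE-4 and 0.0238% ± 0.00540 in WT (mean ± SD, n = 4 each), a ratio of 1.06. The difference of 0.00137 percentage points was smaller than either SD. With the 50 most abundant rows left out of the denominator the ratio was 1.17. With the most abundant CAA row left out of the share it was 0.88, so the direction depended on that row. The share was not scaled by TMM factors. In bulk leaf RNA, fewer cells of a type and less RNA per cell cannot be told apart. The RNA selection is not given in the sources used here, and its part in the small share was not tested.

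**Figure D1:**
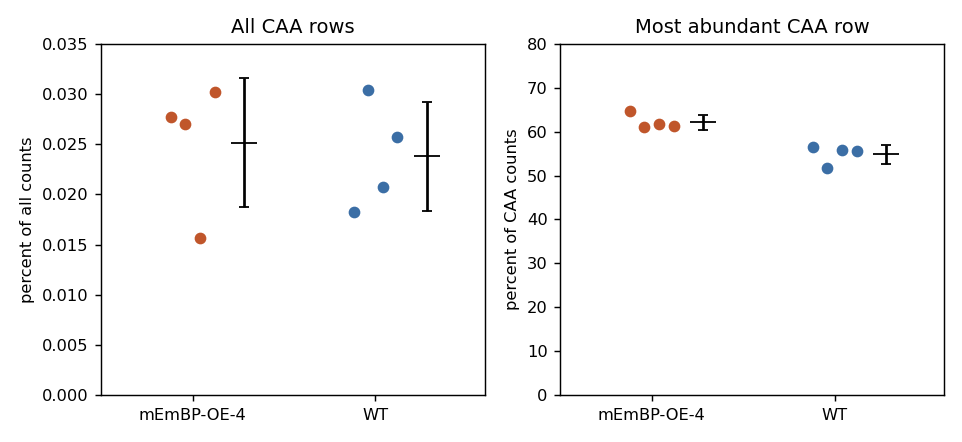
Left, the share of all counts taken by the 107 CAA rows, in percent; right, the share of the CAA counts taken by the most abundant CAA row, in percent. Points are libraries (4 of mEmBP-OE-4, 4 of WT), and bars give the mean ± SD. The groups overlap on the left (0.0157% to 0.0302% in mEmBP-OE-4, 0.0183% to 0.0304% in WT) and are apart on the right. As shares of the CAA counts, the groups did not overlap for 21.4% of all rows with at least 15 counts.

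Of the 107 CAA rows, 51 had no count in any library and 18 had 1 to 14 counts in all. A count of 0 in a library allows up to 3 counts, which is 0.0591 to 0.0842 CPM at these depths. These floors cover counting error only, whereas the intervals of fold changes given further on come from the edgeR fit and include the spread between libraries. The 38 members held 99.9% of the CAA counts, and the rows under the floor held 72 counts in all. The lowest 4 members had 15 to 20 counts, and the highest row outside had 13. Members with at least 1 count numbered 33 to 38 in the mEmBP-OE-4 libraries and 35 to 37 in the WT libraries, and members with at least 10 counts numbered 14 to 22 in mEmBP-OE-4 and 15 to 25 in WT. By total counts over the 8 libraries, 5 members had over 1000, 11 had over 100 and up to 1000, and 22 had 15 to 100.

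A single row made up most of the plastid-encoded counts, and its share of them was larger in mEmBP-OE-4. The row of rank 1 had 179, 165, 96.9 and 185 CPM in mEmBP-OE-4 replicates 1 to 4, against 103, 157, 116 and 143 CPM in WT replicates 1 to 4. On this scale the groups overlapped, since mEmBP-OE-4 replicate 3 was below every WT library. As a share of the CAA counts, the same row took 64.7%, 61.0%, 61.8% and 61.2% in mEmBP-OE-4, against 56.5%, 51.7%, 55.9% and 55.6% in WT. Here every mEmBP-OE-4 library was above every WT library, with means of 62.2% ± 1.69 in mEmBP-OE-4 and 54.9% ± 2.17 in WT (mean ± SD, n = 4 each). Leaving out any 1 library gave a difference of 6.20 to 7.78 percentage points, against 7.27 with all. As shares of the CAA counts, the groups did not overlap, in either direction, for 21.4% of all rows with at least 15 counts. The same held for 5 of the 38 members.

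The other abundant rows filled the remainder in shares that varied more between libraries. That of rank 2 took 12.3% to 19.9% of the CAA counts in mEmBP-OE-4 and 17.6% to 21.9% in WT, and that of rank 3 took 9.68% ± 3.55 in mEmBP-OE-4 and 13.5% ± 3.33 in WT (mean ± SD, n = 4 each). For both the groups overlapped. The 5 most abundant rows together took 93.8% ± 0.658 in mEmBP-OE-4 and 92.2% ± 1.49 in WT, which left 6.11% ± 0.645 in mEmBP-OE-4 and 7.68% ± 1.47 in WT for the other members (mean ± SD, n = 4 each).

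**Figure D2:**
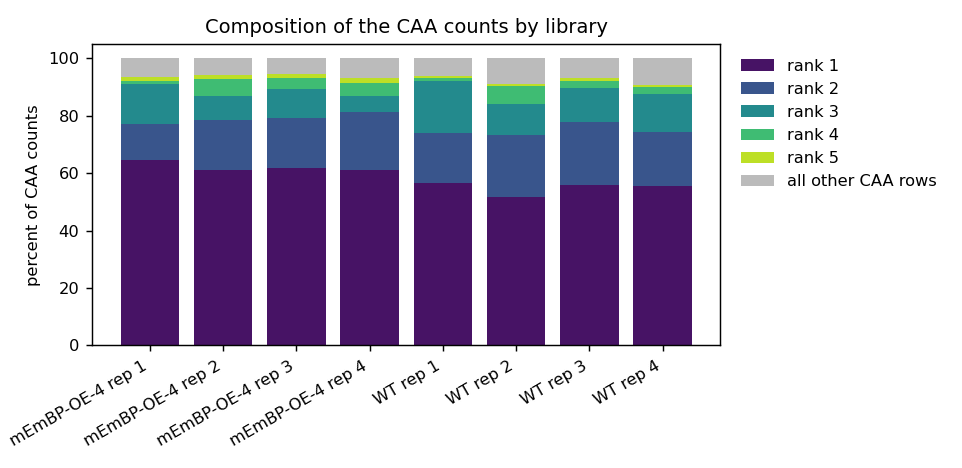
Percent of the CAA counts in each library (horizontal axis) taken by the 5 most abundant rows, ranked by total counts, and by all other CAA rows together. The bar of rank 1 is taller in the mEmBP-OE-4 libraries (61.0% to 64.7%) than in the WT libraries (51.7% to 56.5%), and the row of rank 4 is small in replicate 1 of both groups.

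Tested row by row, 1 of the 38 plastid-encoded rows rose in mEmBP-OE-4 and none fell, with counts scaled on the totals of all rows. The test was the quasi-likelihood test of edgeR, with p-values adjusted by Benjamini-Hochberg over the 24490 rows of the table with at least 15 counts, at a threshold of 0.05. In that fit 46% of all rows tested were called, 9.01% higher and 37% lower, and the 1 call is 2.63% of the members. Without adjustment, 2 members had p under 0.05, or 5.26% of the members, where 54.1% of all rows tested did. Estimates were positive for 13 members and negative for 25, from -1.64 to 1.52 on the log2 scale, with a median of -0.28, where the median of all rows tested was -0.45. DESeq2 with the same scaling also called 1 member. Without mEmBP-OE-4 replicate 1 the edgeR calls were 2 lower and none higher, and without WT replicate 1 they were also 2 lower and none higher. The share of all rows called was not counted with DESeq2 or with 1 library left out. These calls therefore cannot be set against all rows.

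Scaled on the CAA counts alone, which sets a row against the other plastid-encoded rows, no member was called by edgeR's quasi-likelihood test. That fit took in all rows tested, so the spread of the CAA sum entered the variance estimates that rows share. The absence of calls therefore does not decide whether a row moved against the other plastid-encoded rows. Of all rows tested, 16.3% were called there, 4.37% higher and 11.9% lower. None of the members had an unadjusted p under 0.05 in that fit, and DESeq2 called none either. The groups did not overlap in 5 of the 38 members (13.2%), where 21.4% of all rows tested did not overlap on this scale. Those 5 were the rows of rank 1 and rank 5, higher in mEmBP-OE-4, and the rows of rank 7, rank 8 and rank 27, lower in mEmBP-OE-4. The fitted log2 fold change of the row of rank 1 was 0.18 (95% interval -0.36 to 0.72, edgeR adjusted p = 0.632). That row is itself most of the sum it was scaled on, so the fit does not decide whether its share differed.

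TMM factors, which centre the bulk of the genes, raised every estimate against that on totals of all rows and gave 2 members higher and none lower, where 35.9% of all rows tested were called, 18.7% higher and 17.2% lower. CAA33979, the row of rank 5, was the only member whose groups then did not overlap, where 35.7% of all rows tested did not. The factors averaged 0.859 ± 0.127 in mEmBP-OE-4 and 1.18 ± 0.0746 in WT (mean ± SD, n = 4 each), and moved the median of all rows tested to 0.01. Estimates were then positive for 24 members and negative for 14, with a median of 0.15, so the sign of most small differences depended on the scaling. Set against the median of all rows in the same fit, the median of the members was 0.16 higher on totals of all rows, 0.15 higher with TMM and 0.09 higher on the CAA counts. The second row called with TMM was that of rank 1, with a log2 fold change of 0.74 (SE 0.25, edgeR adjusted p = 0.0395), against 0.27 (SE 0.21, edgeR adjusted p = 0.309) on totals of all rows. DESeq2 with TMM called 3 members higher, those of rank 1, 5 and 10. The edgeR call of rank 1 with TMM was lost when mEmBP-OE-4 replicate 1, 2 or 4, or replicate 1, 3 or 4 of WT, was left out (edgeR adjusted p of 0.0545 to 0.107). On totals of all rows, rank 1 was called without mEmBP-OE-4 replicate 3, at 0.44 (edgeR adjusted p = 0.0465).

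Most of these rows had wide intervals. On totals of all rows, the 95% interval of the log2 fold change lay wholly between a 2-fold decrease and a 2-fold increase for 4 of the 38 members, those of rank 1, 2, 3 and 14. It included a 2-fold increase for 20 members and a 2-fold decrease for 28. The median standard error was 0.27 among the 5 rows with over 1000 counts, 0.53 among the 11 with over 100 and up to 1000, and 0.79 among the 22 with 15 to 100. The row of rank 4 had a standard error of 0.74 with 2911 counts, so intervals were wide in an abundant row too. For the members outside those 4, a 2-fold change in at least 1 direction was not excluded.

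**Figure D3:**
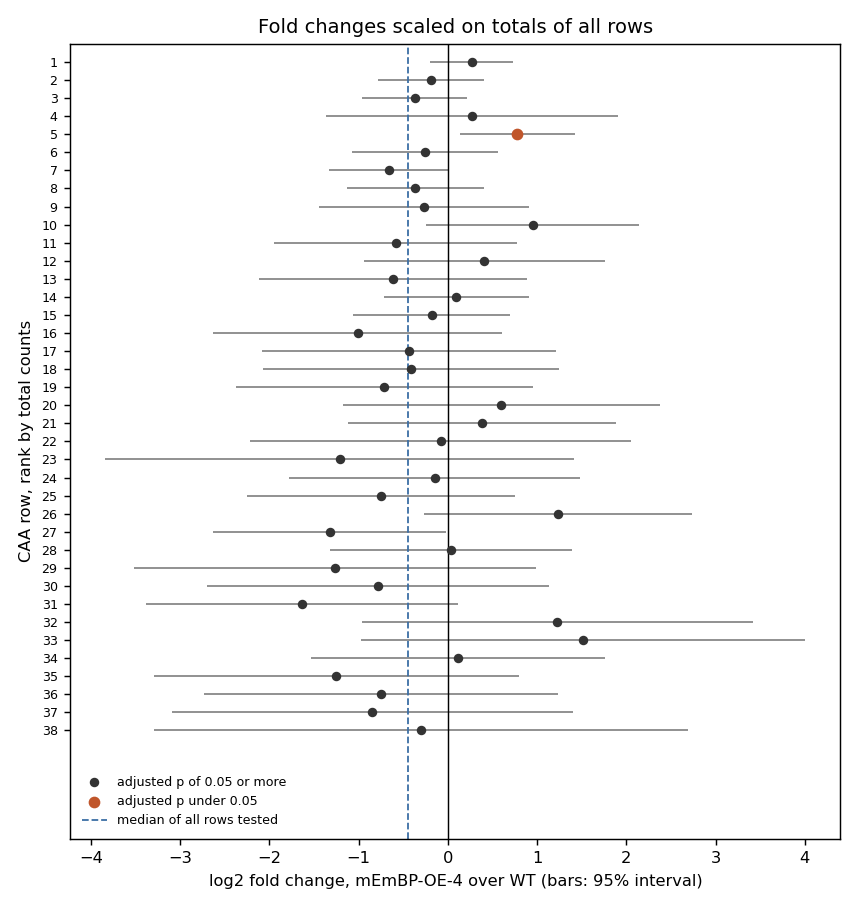
Log2 fold change of mEmBP-OE-4 over WT (horizontal axis) for the 38 members, ordered by total counts (vertical axis), scaled on totals of all rows, with 95% intervals. The row of rank 5 alone is past the threshold at 0.78; the dashed line is the median of all rows tested, -0.45, and the intervals mostly widen down the ranks, with that of rank 4 wide among the abundant rows.

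CAA33979, the row of rank 5, was the member that rose. It had 3.55, 3.83, 2.19 and 5.49 CPM in mEmBP-OE-4 replicates 1 to 4, against 1.70, 2.53, 2.19 and 2.36 CPM in WT replicates 1 to 4. In mEmBP-OE-4, replicate 3 lay among the WT values and the other 3 libraries above them. The means were 3.77 ± 1.36 CPM in mEmBP-OE-4 and 2.20 ± 0.358 CPM in WT (mean ± SD, n = 4 each), which gave a log2 fold change of 0.78 (SE 0.29, edgeR adjusted p = 0.0496). It was 1.27 (SE 0.33, edgeR adjusted p = 0.0138) with TMM and 0.66 (95% interval -0.15 to 1.48, edgeR adjusted p = 0.230) on the CAA counts. Of the CAA counts the row took 1.48% ± 0.236 in mEmBP-OE-4 and 0.935% ± 0.0930 in WT. The groups did not overlap on that scale, where 21.4% of all rows tested did not. On totals of all rows the call was lost without any of the WT replicates 1 to 4 or mEmBP-OE-4 replicates 1, 2 or 4, with edgeR adjusted p of 0.0562 to 0.153, and also with no filter on low counts, at 0.0577. Without mEmBP-OE-4 replicate 3 it was kept, at 0.97 and edgeR adjusted p = 0.0168.

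The other rows given by identifier were low, and none passed the test on totals of all rows. CAA33957, the row of rank 26, had 11, 10, 3 and 13 counts in mEmBP-OE-4 replicates 1 to 4, against 2, 3, 7 and 2 counts in WT replicates 1 to 4. Its groups crossed through mEmBP-OE-4 replicate 3 and WT replicate 3. The log2 fold change was 1.24 (SE 0.68, edgeR adjusted p = 0.156). With TMM it was 1.68 (edgeR adjusted p = 0.0826), and past the threshold at 2.38 without WT replicate 3 (edgeR adjusted p = 0.0375), and past it too without mEmBP-OE-4 replicate 3 (edgeR adjusted p = 0.0388).

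CAA33988, the row of rank 27, had 3, 3, 3 and 5 counts in mEmBP-OE-4, against 7, 6, 4 and 16 counts in WT. It was the only member whose groups did not overlap in CPM, where 43.7% of all rows tested did not. The log2 fold change was -1.33 (SE 0.59, edgeR adjusted p = 0.0878), and -0.76 without WT replicate 4, the library with 16 counts.

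CAA33908, the row of rank 31, had 3, 1, 2 and 1 counts in mEmBP-OE-4, against 1, 9, 5 and 6 counts in WT. WT replicate 1 lay among the mEmBP-OE-4 libraries. The log2 fold change was -1.64 (SE 0.79, edgeR adjusted p = 0.112), and without WT replicate 1 it was -2.01 and past the threshold (edgeR adjusted p = 0.0420).

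**Figure D4:**
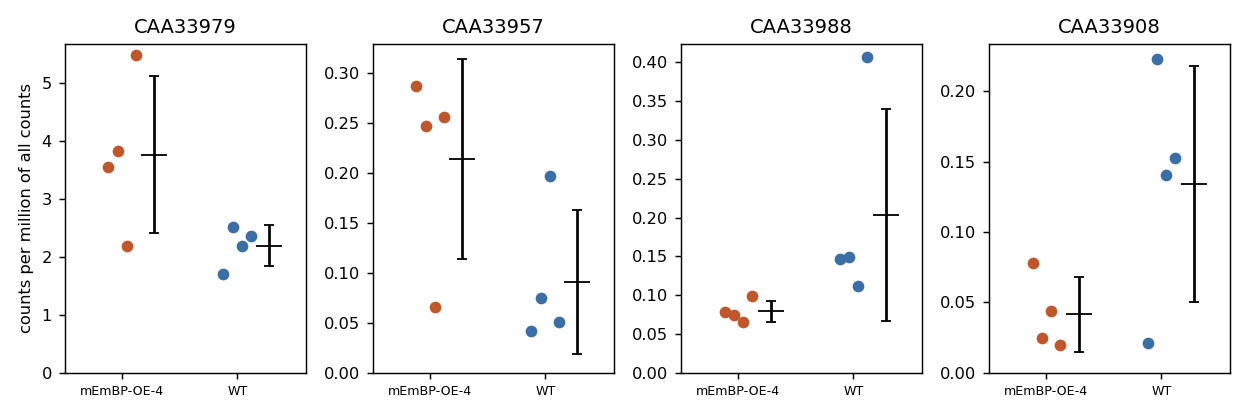
CPM (vertical axis) of the 4 rows given by identifier, in each library of mEmBP-OE-4 and WT, with mean ± SD beside the points. CAA33979 was 3.77 ± 1.36 CPM in mEmBP-OE-4 and 2.20 ± 0.358 CPM in WT; the other 3 rows lie below 0.5 CPM in every library.

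Among the abundant rows, some differences came or went with a single library. Rank 2 had 34.1, 47.1, 27.3 and 60.1 CPM in mEmBP-OE-4, against 32.2, 65.9, 45.4 and 48.4 CPM in WT, so the groups overlapped. Its log2 fold change was -0.19 (95% interval -0.78 to 0.41, edgeR adjusted p = 0.589). Rank 3 had 39.5, 23.0, 16.0 and 17.4 CPM in mEmBP-OE-4, against 33.2, 32.1, 24.7 and 33.9 CPM in WT. In mEmBP-OE-4, 3 libraries lay below all WT libraries and replicate 1 above them. Its log2 fold change was -0.37 (95% interval -0.96 to 0.22, edgeR adjusted p = 0.269), and without mEmBP-OE-4 replicate 1 it was -0.72 and past the threshold (edgeR adjusted p = 0.00624). With the replicate number added to the fit of all 8 libraries as a block, it was -0.46 and past the threshold (edgeR adjusted p = 0.0322).

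In the row of rank 7 the libraries had 1.67, 1.78, 1.36 and 2.28 CPM in mEmBP-OE-4, against 1.68, 4.06, 2.78 and 2.72 CPM in WT. Only WT replicate 1 lay within the range of mEmBP-OE-4. The log2 fold change was -0.66 (SE 0.30, edgeR adjusted p = 0.0969), and -0.84 without WT replicate 1 (edgeR adjusted p = 0.0335).

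As a set, the members varied between libraries of a group by more than counting error. Of the 76 sets of 4 libraries (38 members in each group), 71 had a chi-square per degree of freedom above 1, with a median of 5.49. Counting error alone gives about 1, so a value just above 1 does not show added spread in a single row. The lowest value was 0.117 among the 22 rows with 100 counts or fewer. It was 1.44 among the 11 rows with over 100 and up to 1000 counts, and 2.64 among the 5 with over 1000. The extremes fell on a few libraries. In mEmBP-OE-4, replicate 3 was the lowest library of its group for 28 members and the highest for none, and replicate 4 was the highest for 18. In WT, replicate 1 was the lowest for 21 members, and replicate 2 was the highest for 22. mEmBP-OE-4 replicate 3 and WT replicate 1 also had the lowest CAA shares of their groups, 0.0157% and 0.0183%.

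The widest spread among the abundant rows was that of rank 4. It had 2.35, 15.6, 5.87 and 13.5 CPM in mEmBP-OE-4 replicates 1 to 4, against 1.30, 19.1, 4.58 and 6.03 CPM in WT replicates 1 to 4. The highest library was 6.65 times the lowest in mEmBP-OE-4 and 14.7 times in WT. Replicate 1 was the lowest in both groups, and the groups overlapped (log2 fold change 0.27, 95% interval -1.36 to 1.91, edgeR adjusted p = 0.782). With TMM the log2 fold change was 0.82 (edgeR adjusted p = 0.448). Adding the replicate number to the TMM fit as a block gave 0.97, past the threshold (edgeR adjusted p = 0.00630).

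Replicate 1 was also the lowest in both groups in the row of rank 10, with 0.470, 1.28, 0.876 and 2.28 CPM in mEmBP-OE-4, against 0.231, 0.942, 0.674 and 0.712 CPM in WT. Rank 13 ran the other way, with 1.72, 0.420, 0.153 and 0.453 CPM in mEmBP-OE-4, against 1.74, 0.967, 0.393 and 1.07 CPM in WT. On totals of all rows, rank 13 had a log2 fold change of -0.62 (edgeR adjusted p = 0.473), and -1.61 without mEmBP-OE-4 replicate 1 (edgeR adjusted p = 0.0376). With TMM, rank 10 had 1.47, which edgeR did not call (adjusted p = 0.0788) and DESeq2 did (adjusted p = 0.0399). Leaving out mEmBP-OE-4 replicate 1 gave 1.76 for rank 10 with TMM (edgeR adjusted p = 0.0264). On totals of all rows rank 10 had 0.95 (edgeR adjusted p = 0.168). The replicate block brought it past the threshold there, at 0.88 (edgeR adjusted p = 0.0458), and with TMM, at 1.36 (edgeR adjusted p = 0.0100). Both replicate 1 libraries were the lowest of all 8 for 2 members and the highest of all 8 for 2, the rows of rank 13 and rank 25, and lay at neither end together for 34. These 4 rows were picked out after their values were seen, and what the replicate 1 libraries share is not given in the labels. How many of all rows tested have both replicate 1 libraries at an end was not counted. The pattern is therefore not taken as particular to plastid-encoded rows.

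**Figure D5:**
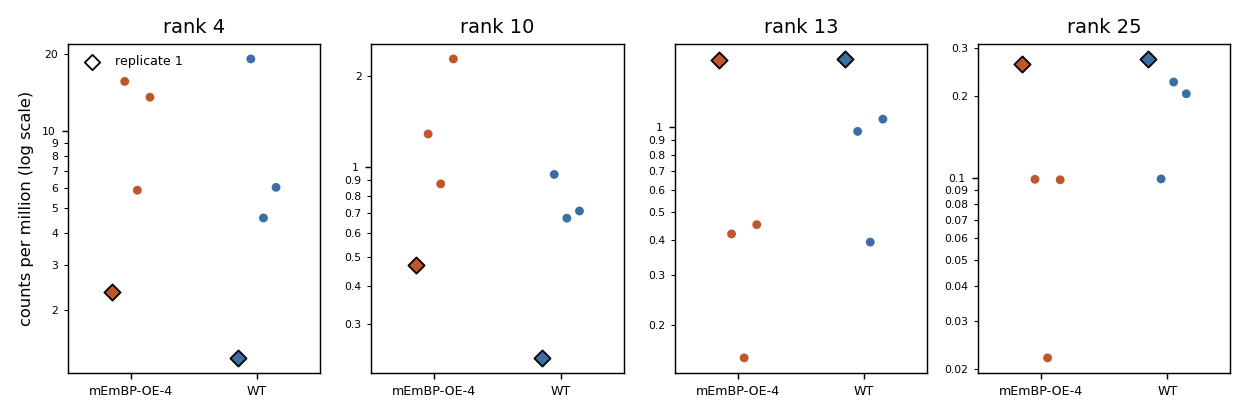
CPM on a log axis of the 4 rows in which both replicate 1 libraries (diamonds) were the lowest or the highest of the 8 libraries, for mEmBP-OE-4 and WT. In the row of rank 4 the diamonds stand at 2.35 CPM in mEmBP-OE-4 and 1.30 CPM in WT, below the other 6 libraries; in the row of rank 13 they stand at 1.72 CPM in mEmBP-OE-4 and 1.74 CPM in WT, above them.

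Leaving out both replicate 1 libraries, an alternative added once the values were known, gave 5 members lower and none higher on totals of all rows by edgeR's quasi-likelihood test, where 52.4% of all rows tested were called and 42.4% were lower. They were the rows of rank 3, 7, 16, 22 and 31, with log2 fold changes of -0.69 to -2.44, and CAA33979 was not called (edgeR adjusted p = 0.0964). With TMM the same 6 libraries gave 2 members higher and none lower, those of rank 5 and rank 10, where 37.2% of all rows tested were called. On the CAA counts they gave none.

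Nuclear genes for partners of these complexes were set beside the plastid-encoded rows. Their loci were recalled from memory, and the files do not check their roles. Of 14 loci listed for photosystem subunits, all 14 rose in mEmBP-OE-4 on totals of all rows and with TMM, with medians of 0.56 and 1.03, where 9.01% and 18.7% of all rows tested were called higher. On totals of all rows, leaving out each library in turn gave 10 to 14 loci higher, with 10 without WT replicate 1 and 10 without WT replicate 4. They took 8.42% ± 0.766 of all counts in the line and 5.75% ± 0.449 in WT (mean ± SD, n = 4 each). Of 14 antenna loci, which encode the chlorophyll-binding proteins that feed the photosystems, 7 rose and 1 fell on totals of all rows (median 0.33), and 11 rose and none fell with TMM (median 0.81). Leaving out each library gave 6 to 10 antenna loci higher on totals of all rows.

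Scaled on the CAA counts, 2 of the 14 photosystem loci and 2 of the 14 antenna loci were called higher and none lower, with medians of 0.50 and 0.32. That scaling carries the spread of the CAA sum into every row, and 16.3% of all rows tested were called under it. Of 5 loci listed for plastid transcription (sigma factors and the phage-type polymerase), none was called on totals of all rows (median -0.12), and 1 rose with TMM (median 0.36). The median of all rows tested was -0.45 on totals of all rows, 0.01 with TMM and -0.49 on the CAA counts. Whether the plastid-encoded rows differ from the nuclear lists was not tested, since the rows differ widely in depth.

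Among the other rows whose identifiers do not begin with Os, calls were counted in the same fits. On totals of all rows, of 114 tested rows beginning with ENSRNA 1 was higher and 12 were lower, of 12 beginning with BAC none was higher and 2 were lower, and none of 7 beginning with EPlORYSAT was called. These classes took still smaller shares of the counts. The ENSRNA rows took 0.00484% ± 0.00117 in mEmBP-OE-4 and 0.00554% ± 0.00169 in WT (mean ± SD, n = 4 each). The CAA rows had the largest share of these classes in every library, and 2.63% of their tested rows were called on totals of all rows, against 11.4% of the ENSRNA rows, 16.7% of the BAC rows and 46.3% of the Os rows. With TMM, where 35.9% of all rows tested were called, 2 of the 38 CAA rows were called. Of the 114 ENSRNA rows, 5 were higher and 6 lower. None of the 12 BAC rows was called, so the order against the BAC rows turned. These differences between classes were not tested.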

How the data were processed

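Per the labels, total RNA of rice leaves was sequenced in 8 libraries, 4 of mEmBP-OE-4 and 4 of WT, grouped by title. The values deposited by the authors are raw read counts, whole numbers with no normalization, 1 row per gene and 1 column per library. The tools named in the submitters' processing notes are STAR 2.5.3a, DESeq2, Trim Galore and FastQC, without their roles, and the build named is IRGSP-1.0. How reads were counted, on which strand, against which annotation and with what treatment of reads that match several places is not given in the sources used here. Reads shared between plastid genes, their copies in the plastid's inverted repeat or plastid DNA in the nuclear chromosomes therefore carry an unknown error.

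Rows with at least 15 counts over the 8 libraries (24490) were tested together by the quasi-likelihood F test of edgeR 4.0.16 (R 4.3.3), with Benjamini-Hochberg adjustment over all of them and a threshold of 0.05. Library sizes were the totals of all rows, the sums of the CAA rows, or totals with TMM factors. The standard error of a log2 fold change is its size over the root of its F statistic, and 95% intervals use the t quantile of the fit. Sums over members got no test. Lists of 14 antenna, 14 photosystem and 5 plastid transcription loci of the nucleus, recalled from memory, were counted in the same fits. Alternatives were DESeq2 1.42.0, other size factors, other filters, a floor of 100 counts, the replicate block and removal of each library. No pair of replicates agreed within sampling noise (chi-square of 6.20 to 110 per degree of freedom), and all 8 entered the fits.

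The rule for rows given by identifier took, in each direction, the 2 members of lowest p on totals of all rows, or on the CAA counts where a direction had no call. The members, lists and settings were chosen with earlier results of these data known.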

Additional observations from a re-analysis of the deposited data

Results flagged for a closer look

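Among 94 sets of 4 values (9 library measures and 38 members in each group), 5 had a library far from the other 3 by Dixon's criterion, where chance gives about 1 in 20. The row of rank 8 had 3.47 CPM in WT replicate 2, against 1.54 to 1.86 CPM in the other WT libraries. The row of rank 22 had 0.574 CPM in mEmBP-OE-4 replicate 1, against 0.0394 to 0.0494 CPM in the other libraries of that line. In WT replicate 4, CAA33988 (rank 27) had 0.407 CPM against 0.112 to 0.149 CPM in the other WT libraries. In the same library the row of rank 35 had 0.254 CPM against 0.0248 to 0.0420 CPM, and the row of rank 38 had 0.178 CPM against 0 to 0.0281 CPM. These last 2 rows had 20 and 15 counts in all.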

How the results depend on the processing

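On totals of all rows, where 1 member was called, 0 were called with no filter on low counts, 2 with median-of-ratios size factors, 2 with upper-quartile factors, 0 to 2 when each library was left out (2 lower without mEmBP-OE-4 replicate 1 and 2 lower without WT replicate 1, in place of 1 higher), and 5 without both replicate 1 libraries. With TMM, where 2 were called, leaving out each library gave 1 to 3. Shares of all rows called were not counted for DESeq2 or for these alternatives, except without both replicate 1 libraries. On the CAA counts all settings run gave 0, in fits that carry the spread of the CAA sum into every row. Replicates carry the numbers 1 to 4 in each group, and the labels give no meaning to a number. Deviations of same-numbered libraries from their group means correlated at 0.538, 0.281, 0.143 and 0.0753 across rows tested. Each library correlated best with its own number except mEmBP-OE-4 replicate 4 and WT replicate 2. Because the correlation was not clear for every number, at 0.0753 for replicate 4, the numbers were not taken as pairs in the main fits. Whether same-numbered libraries share a source was not tested. With the replicate block, 3 members were called on totals of all rows (rank 5 and rank 10 higher, rank 3 lower, where 57.3% of all rows were) and 4 with TMM, those of rank 1, 4, 5 and 10, all higher, where 45.1% of all rows were. Under the block rank 3 had -0.46 (edgeR adjusted p = 0.0322) and rank 10 had 0.88 (edgeR adjusted p = 0.0458) on totals, and with TMM rank 4 had 0.97 (edgeR adjusted p = 0.00630) and rank 10 had 1.36 (edgeR adjusted p = 0.0100). The block also gave 11 antenna loci higher on totals, against 7 without it. The difference in the CAA share, 0.00137 percentage points with all libraries, ranged from -0.000463 to 0.00453 when each library was left out. The highest value was without mEmBP-OE-4 replicate 3, and leaving out mEmBP-OE-4 replicate 4 or WT replicate 1 turned the sign. Within a scaling, the 4 rows given by identifier kept their direction under the alternatives in which they were tested. CAA33957, CAA33988 and CAA33908 did not pass edgeR's own filter on low counts or the floor of 100 counts. Other members changed sign between scalings, with 25 negative estimates on totals of all rows and 14 with TMM. Of 314 values under alternatives, 277 were classed as the same, 9 were no longer past the threshold, 4 came past it and 24 moved by more than an allowed margin. The margin applied to numbers of calls. Fold changes of rows given by identifier were classed as the same when sign and side of the threshold stayed, whatever their size. This class did not mean no change. The difference in the CAA share turned sign within it, and antenna loci higher went from 7 to 10 without WT replicate 3. The cause of these changes was not tested. Depth was low for 22 of 38 members, with 100 counts or fewer. A chi-square per degree of freedom above 1 was found in 71 of 76 sets, where counting error alone gives about 1.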
